A study of Mus musculus with 12 samples.

Results

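Cytochrome P450 families 1 to 4 were followed in mouse liver that was regrowing after partial hepatectomy, an operation that takes out most of the organ. The members were all genes of the deposited expression table whose symbol is Cyp followed by a family number from 1 to 4, a subfamily letter and a gene number. There were 60 of them among 13554 genes. P450s of the other families, such as Cyp7, Cyp8, Cyp26, Cyp27 and Cyp51, are not members.

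All mice were wild-type (WT) males of the C57Bl/6J strain, and all livers were taken on postoperative day 3, so every group had been operated on. The PH80_G+H group had an 80% resection with G-CSF, a cytokine that drives granulocyte formation, plus HNF4a, a transcription factor of hepatocytes. The PH80_HC group had an 80% resection in an arm named HC (meaning not given in the sources used here), and the PH80 group had the 80% resection without these additions. The PH70 group, with a 70% resection, was the smaller operation. Each group had 3 libraries. Age, agent doses and routes were not given in the sources used here. Nor do the labels tie libraries to separate animals, and a p-value therefore reflects library-to-library spread, which may be technical.

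P450s are membrane-bound heme enzymes that insert an oxygen atom into their substrate with electrons passed on by P450 reductase. Families 1 to 3 clear drugs, toxins and steroids, and family 4 mainly hydroxylates the end of fatty acid chains. In the liver most of them are made mainly by hepatocytes, and many are zoned along the lobule: the pericentral P450s, among them Cyp2e1 and Cyp1a2, are densest around the central vein, whereas Cyp2f2 is densest around the portal tract. Nuclear receptors (CAR, PXR and PPAR alpha), the aryl hydrocarbon receptor, liver factors such as HNF4A and C/EBP alpha, and the sex-specific rhythm of growth hormone set their levels.

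The promoters of 5 members are shown because these genes carry the main contrasts described below. Cyp2e1 and the paralogs Cyp2c37 and Cyp2c50 differed both between PH80 and PH70 and between PH80_HC and PH80. The paralogs Cyp2c67 and Cyp2c69 have similar promoters. Every PH80_HC library lay above the PH80 range for Cyp2c69 but within it for Cyp2c67. Each promoter covers 250 bases before and 50 bases from the RefSeq transcript start on GRCm38.p6, read 5′ to 3′ on the gene's strand. The windows are chr7:140763569-140763868 (plus strand) for Cyp2e1, chr19:39992174-39992473 (plus strand) for Cyp2c37, chr19:40089429-40089728 (plus strand) for Cyp2c50, chr19:39648993-39649292 (minus strand) for Cyp2c67 and chr19:39886720-39887019 (minus strand) for Cyp2c69. Capitals mark matches to an HNF4A motif (CAAAGTCCA, both strands), a C/EBP motif (TTGCNNAA, both strands) and the TATA box letters (TATAAA, plus strand). A match counts anywhere in the window, and the TATAAA of Cyp2c69 lies past the annotated start, at position 11.
Cyp2e1: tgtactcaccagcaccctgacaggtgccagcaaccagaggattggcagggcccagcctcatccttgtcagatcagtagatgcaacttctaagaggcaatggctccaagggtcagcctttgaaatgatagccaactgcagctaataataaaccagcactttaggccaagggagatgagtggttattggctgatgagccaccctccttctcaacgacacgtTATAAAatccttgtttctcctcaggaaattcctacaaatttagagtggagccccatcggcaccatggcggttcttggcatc
Cyp2c37: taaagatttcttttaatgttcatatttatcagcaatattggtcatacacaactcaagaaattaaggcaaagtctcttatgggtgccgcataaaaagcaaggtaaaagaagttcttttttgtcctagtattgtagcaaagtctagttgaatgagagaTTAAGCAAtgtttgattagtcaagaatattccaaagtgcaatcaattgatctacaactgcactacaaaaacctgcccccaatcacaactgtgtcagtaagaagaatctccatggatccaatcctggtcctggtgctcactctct
Cyp2c50: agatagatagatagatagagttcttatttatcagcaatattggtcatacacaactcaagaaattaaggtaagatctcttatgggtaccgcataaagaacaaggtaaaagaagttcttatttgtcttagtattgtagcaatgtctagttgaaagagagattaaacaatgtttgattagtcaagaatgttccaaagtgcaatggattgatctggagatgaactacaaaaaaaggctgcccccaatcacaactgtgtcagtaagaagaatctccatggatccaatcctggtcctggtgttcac
Cyp2c67: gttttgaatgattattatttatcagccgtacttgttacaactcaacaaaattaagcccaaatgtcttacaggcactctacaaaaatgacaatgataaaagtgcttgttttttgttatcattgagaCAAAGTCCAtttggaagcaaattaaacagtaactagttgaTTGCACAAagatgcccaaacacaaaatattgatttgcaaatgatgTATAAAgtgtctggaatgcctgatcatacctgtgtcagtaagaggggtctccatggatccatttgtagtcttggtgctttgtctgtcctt
Cyp2c69: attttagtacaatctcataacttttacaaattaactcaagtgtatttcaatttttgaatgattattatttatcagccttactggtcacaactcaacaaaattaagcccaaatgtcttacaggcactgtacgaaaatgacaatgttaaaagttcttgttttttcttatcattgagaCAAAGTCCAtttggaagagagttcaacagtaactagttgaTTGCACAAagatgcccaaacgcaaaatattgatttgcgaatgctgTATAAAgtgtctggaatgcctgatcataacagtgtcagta
Cyp2c37 and Cyp2c50 matched at 89.5% of aligned promoter bases, and Cyp2c67 and Cyp2c69 at 92.8%. Cyp2c37 holds the C/EBP letters and Cyp2c50 none of the 3 motifs. RefSeq promoters matched 47 of the 60 members. A member counts when any of its promoters holds the motif, and some, such as Cyp4f14, have several. The share over all promoters is counted per promoter, so it is not on the same unit as the member share. The HNF4A motif was in 7 of these 47 (14.9%), against 0.475% of all 32851 promoters of the same length, and the 7 are Cyp2c40, Cyp2c67, Cyp2c68, Cyp2c69, Cyp2c70, Cyp3a11 and Cyp3a16. The first 4 are near copies of each other on chromosome 19, so they are not independent cases. The C/EBP motif was in 11 members (23.4%, against 10.8% of all promoters) and the TATAAA letters, at any position, in 18 (38.3%, against 8.32%). The other motifs searched on both strands were a nuclear receptor site (AGGTCA, 13 members or 27.7%, against 16.3%), a STAT5 site (TTCNNNGAA, 2 or 4.26%, against 8.30%), a site of the aryl hydrocarbon receptor (TNGCGTG, 1 or 2.13%, against 5.07%), a PAR bZIP site (TTATGTAA, 0, against 0.938%) and an HNF1 site (TAATNATTA, 0, against 0.618%). A match is a description of letters and not a binding site.

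Depth was 9.72 M to 44.5 M recovered reads per library. Members made up 1.41% to 1.68% of all normalised reads in PH80_G+H libraries, 1.06% to 1.72% in PH80_HC, 0.907% to 1.62% in PH80 and 1.58% to 1.83% in PH70. Hepatocyte markers led every library: the summed level of 7 of the 8 listed (Tf is not analysed here) was 2590700 to 3090000 normalised reads in PH80_G+H, 2843800 to 4097700 in PH80_HC, 1993200 to 2448700 in PH80 and 3097000 to 3272700 in PH70. Neutrophil markers (5 genes, the defining Ly6g at 0 in some libraries) summed to 341 to 2306 in PH80_G+H, 576 to 2138 in PH80_HC, 298 to 5792 in PH80 and 138 to 473 in PH70, and the highest value is PH80 replicate 2. In whole liver, fewer cells of a type and less RNA per cell cannot be told apart.

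Scaled by transcript length, Cyp3a11, the mouse counterpart of the main human drug-metabolising P450 and a PXR target, was the highest member, at a mean level of 45578 normalised reads per kb over the 12 libraries. Cyp2e1, which oxidises ethanol and paracetamol, followed at 22941 per kb, then Cyp2c70, which makes muricholic acids, at 12119, Cyp2d9 at 10128 and Cyp2d26 at 10108 per kb. Cyp3a11 held 18.8% to 40.5% of the members' summed level per length in a library and Cyp2e1 4.83% to 18.7%. The make-up of the P450 pool differed between the resections, as a description without a test: the Cyp3a subfamily made up 40.3% of it in PH80 and 26.3% in PH70, and Cyp2e1 6.32% in PH80 and 16.2% in PH70.

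The larger resection was set against the smaller to ask how P450 RNA differs with the extent of liver removed. Values are normalised reads, the read count of a gene divided by the size factor of its library, and a gene passed when limma's test on log2(value + 1) gave a Benjamini-Hochberg adjusted p under 0.05 over all genes tested. Of the 59 members tested (Cyp3a16, at 0 to 5.21 normalised reads, was too low), 12 were lower in PH80 than in PH70, and 0 were higher. Across all 12570 genes tested, 2.73% were lower and 1.09% higher. The mean was lower in PH80 for 50 of the 59 members, with a median log2 difference of -0.65 against 0.01 over all genes, and the libraries of the groups did not overlap, with PH80 lower, for 25 of 59, against 14.2% of all genes. The 12 were Cyp1a2, Cyp2a5, Cyp2c23, Cyp2c37, Cyp2c50, Cyp2c54, Cyp2d9, Cyp2e1, Cyp2f2, Cyp2u1, Cyp4a12a and Cyp4a32. At an unadjusted p under 0.05 in either direction there were 29 of 59 members, against 21.4% of all genes.

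Pericentral P450s made up 6 of these 12, out of 8 listed (median log2 difference -1.64). Cyp2e1 (chromosome 7, 140763739 to 140774987) had 10157, 10802 and 23913 normalised reads in PH80 livers, against 57958, 76356 and 42125 in PH70 livers. PH80 replicate 3 stood above the other PH80 libraries but below every PH70 library. The difference was 4.14-fold (log2 -2.05, SE 0.34, adjusted p = 0.00761). Cyp1a2 (chromosome 9, 57676937 to 57683703), which oxidises caffeine and aromatic amines, had 3257, 1465 and 5480 in PH80, against 8454, 9747 and 7285 in PH70, 2.84-fold lower with no overlap (log2 -1.51, SE 0.36, adjusted p = 0.0366). Cyp2a5 (chromosome 7, 26835305 to 26843548), the coumarin and nicotine hydroxylase, had 2825, 2745 and 3084 in PH80, against 8517, 7325 and 5923 in PH70 (2.49-fold lower, log2 -1.32, SE 0.23, adjusted p = 0.0104).

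Cyp2c37, Cyp2c50 and Cyp2c54, neighbouring genes on chromosome 19 (39992424 to 40113950 in all) whose enzymes oxidise arachidonic acid, were lower together. Cyp2c37 had 316, 329 and 874 normalised reads in PH80 and 2981, 3294 and 1340 in PH70 (5.24-fold lower, log2 -2.39, SE 0.47, adjusted p = 0.0158). Cyp2c54 had 207, 273 and 748 in PH80 and 2478, 2932 and 970 in PH70 (5.49-fold lower, log2 -2.46, SE 0.55, adjusted p = 0.0265). Cyp2c50 had 1980, 1318 and 3793 in PH80 and 9138, 9931 and 4315 in PH70 (3.41-fold lower, log2 -1.77, SE 0.41, adjusted p = 0.0315). In all 3 the highest PH80 library was replicate 3 and the lowest PH70 library replicate 3, and the groups came close there without overlapping. Their transcripts are 94.8% to 95.8% identical and 25.7% to 30.7% of their 50-base words occur in other transcripts, so the authors' counting could have divided reads between them.

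The remaining pericentral members, Cyp2c29 and Cyp3a11, did not pass the test. Cyp2c29 averaged 9635 ± 5154 in PH80 and 16507 ± 5527 in PH70 (SD, n = 3 each; log2 -0.85, SE 0.36, adjusted p = 0.200). Cyp3a11 had 92254, 79551 and 157380 normalised reads in PH80 and 90158, 110790 and 114510 in PH70, with a log2 difference of 0.00 (SE 0.37, adjusted p = 0.996). Pericentral genes that are not P450s were listed beside them: of 8, 2 were lower in PH80, glutamine synthetase (Glul, 6509 ± 2418 in PH80 and 14667 ± 3136 in PH70, adjusted p = 0.0338) and the glutamate transporter Slc1a2 (696 ± 240 in PH80 and 1726 ± 356 in PH70, adjusted p = 0.0204), and all 8 had a lower mean.

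Lower P450 levels in PH80 were not limited to pericentral members. Cyp2f2 (chromosome 7, 27119909 to 27133660), the periportal P450, which activates naphthalene, had 8319, 4411 and 8898 normalised reads in PH80, against 15896, 24617 and 18461 in PH70 (2.81-fold lower, log2 -1.49, SE 0.29, adjusted p = 0.0158). Cyp2c23 (chromosome 19, 44005022 to 44029208), an arachidonic acid epoxygenase, had 2837, 1907 and 4807 in PH80 and 7356, 8990 and 7026 in PH70 (2.61-fold lower, adjusted p = 0.0288). None of 8 periportal genes without P450s passed the test, 4 with a lower and 4 with a higher mean in PH80. The fatty acid hydroxylase Cyp4a32 (chromosome 4, 115600969 to 115621602) had 87.2, 54.6 and 135 in PH80 and 582, 515 and 194 in PH70 (4.45-fold lower, log2 -2.15, SE 0.43, adjusted p = 0.0175), and 46.8% of its 50-base words occur in other transcripts.

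**Figure D1:**
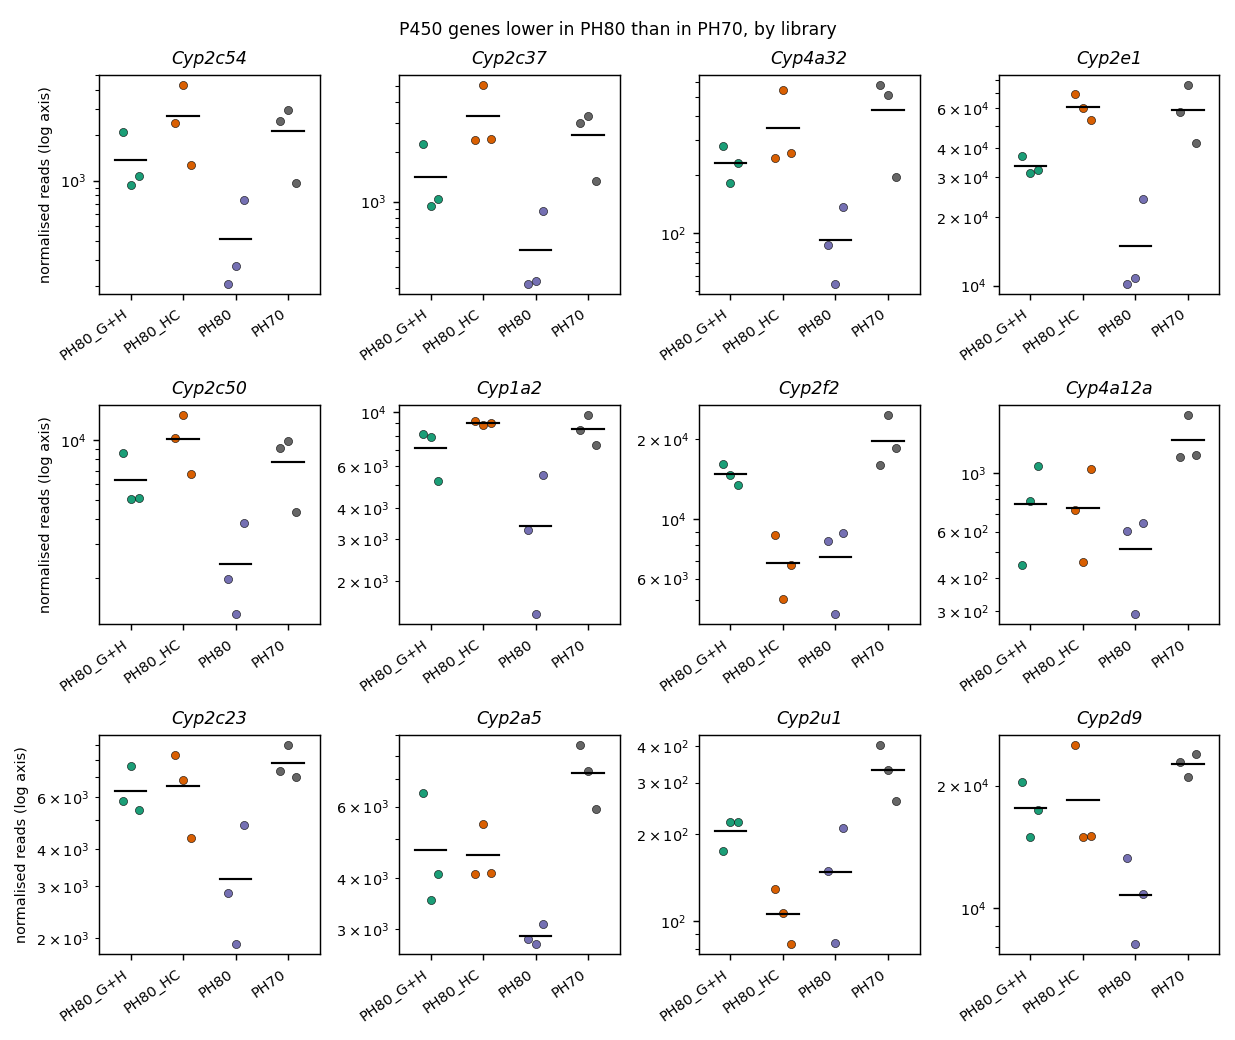
Normalised reads (log axis) of the 12 P450 genes that were lower in PH80 than in PH70, 1 panel per gene, for PH80_G+H, PH80_HC, PH80 and PH70 from left to right; points are libraries and bars the mean of 3. Cyp2e1 reached 53074 to 69406 in PH80_HC and 31327 to 37109 in PH80_G+H, above the 10157 to 23913 of PH80, whereas Cyp2f2 in PH80_HC (5054 to 8740) lay within reach of PH80 (4411 to 8898).

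Male-biased P450s formed the last group: 3 of 4 listed were lower in PH80, against 2.73% of all genes. The groups did not overlap for any of the 4, with PH80 lower, against 14.2% of all genes. Cyp2d9 (chromosome 15, 82433437 to 82456845), the testosterone 16-alpha-hydroxylase of male liver, had 13273, 8116 and 10810 normalised reads in PH80 and 22863, 21018 and 23938 in PH70 (2.15-fold lower, log2 -1.10, SE 0.26, adjusted p = 0.0366). Cyp4a12a (chromosome 4, 115299046 to 115332815), which makes the eicosanoid 20-HETE, had 602, 291 and 649 in PH80 and 1154, 1669 and 1175 in PH70 (2.71-fold lower, adjusted p = 0.0496); 48.9% of its words are shared, all with Cyp4a12b. Cyp2u1 (chromosome 3, 131288441 to 131303227), a fatty acid hydroxylase, had 149, 83.7 and 209 in PH80 and 405, 331 and 259 in PH70 (2.36-fold lower, adjusted p = 0.0387). Cyp4a12b averaged a log2 difference of -0.66 and did not pass the test (adjusted p = 0.262). Given their shared words, Cyp4a12a and Cyp4a12b are not independent cases.

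Among other members with a mean of at least 1000 normalised reads, none passed this test. Cyp4v3, an omega-hydroxylase, came nearest, at 4535 ± 1185 in PH80 and 8247 ± 1522 in PH70 (adjusted p = 0.0728), then Cyp2j5 (log2 -0.78, adjusted p = 0.0823), Cyp4f14 (-1.06, 0.0872) and Cyp2c67 (-1.11, 0.0897). Log2 differences were between -0.74 and -0.38 for Cyp2a12, Cyp2c68, Cyp2c70, Cyp2d10, Cyp2d22, Cyp2j6, Cyp3a25, Cyp3a59, Cyp4a14 and Cyp4f15, -0.34 for Cyp3a13, -1.25 for Cyp2d13, -0.15 for Cyp2d40 and -0.04 for Cyp2d26, and Cyp4a10 had a lower mean in PH80 with an adjusted p of 0.357. Of all 59 members, Cyp4f16 alone was higher in every PH80 library (395, 307 and 308) than in every PH70 library (213, 181 and 285) without passing the test (log2 0.59, adjusted p = 0.183); it is named after its values were seen. The count of 12 rests on single libraries: it was 0 without PH70 replicate 2, 3 without PH70 replicate 1, 3 without PH80 replicate 1 and 2 without PH80 replicate 2, and without PH70 replicate 2 the calls of Cyp2e1 (adjusted p = 0.0578) and Cyp2a5 (adjusted p = 0.0626) ended. Over 25 alternatives, the call of Cyp2c54 ended in 6, of Cyp2c50 in 7, of Cyp2c23 in 8, of Cyp2d9 in 10, of Cyp1a2 in 12, of Cyp4a12a in 14 and of Cyp2u1 in 15. With every library scaled to the same total, 6 members were lower and 0 higher, and the split over all genes, 343 lower and 137 higher, became 110 lower and 127 higher.

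**Figure D2:**
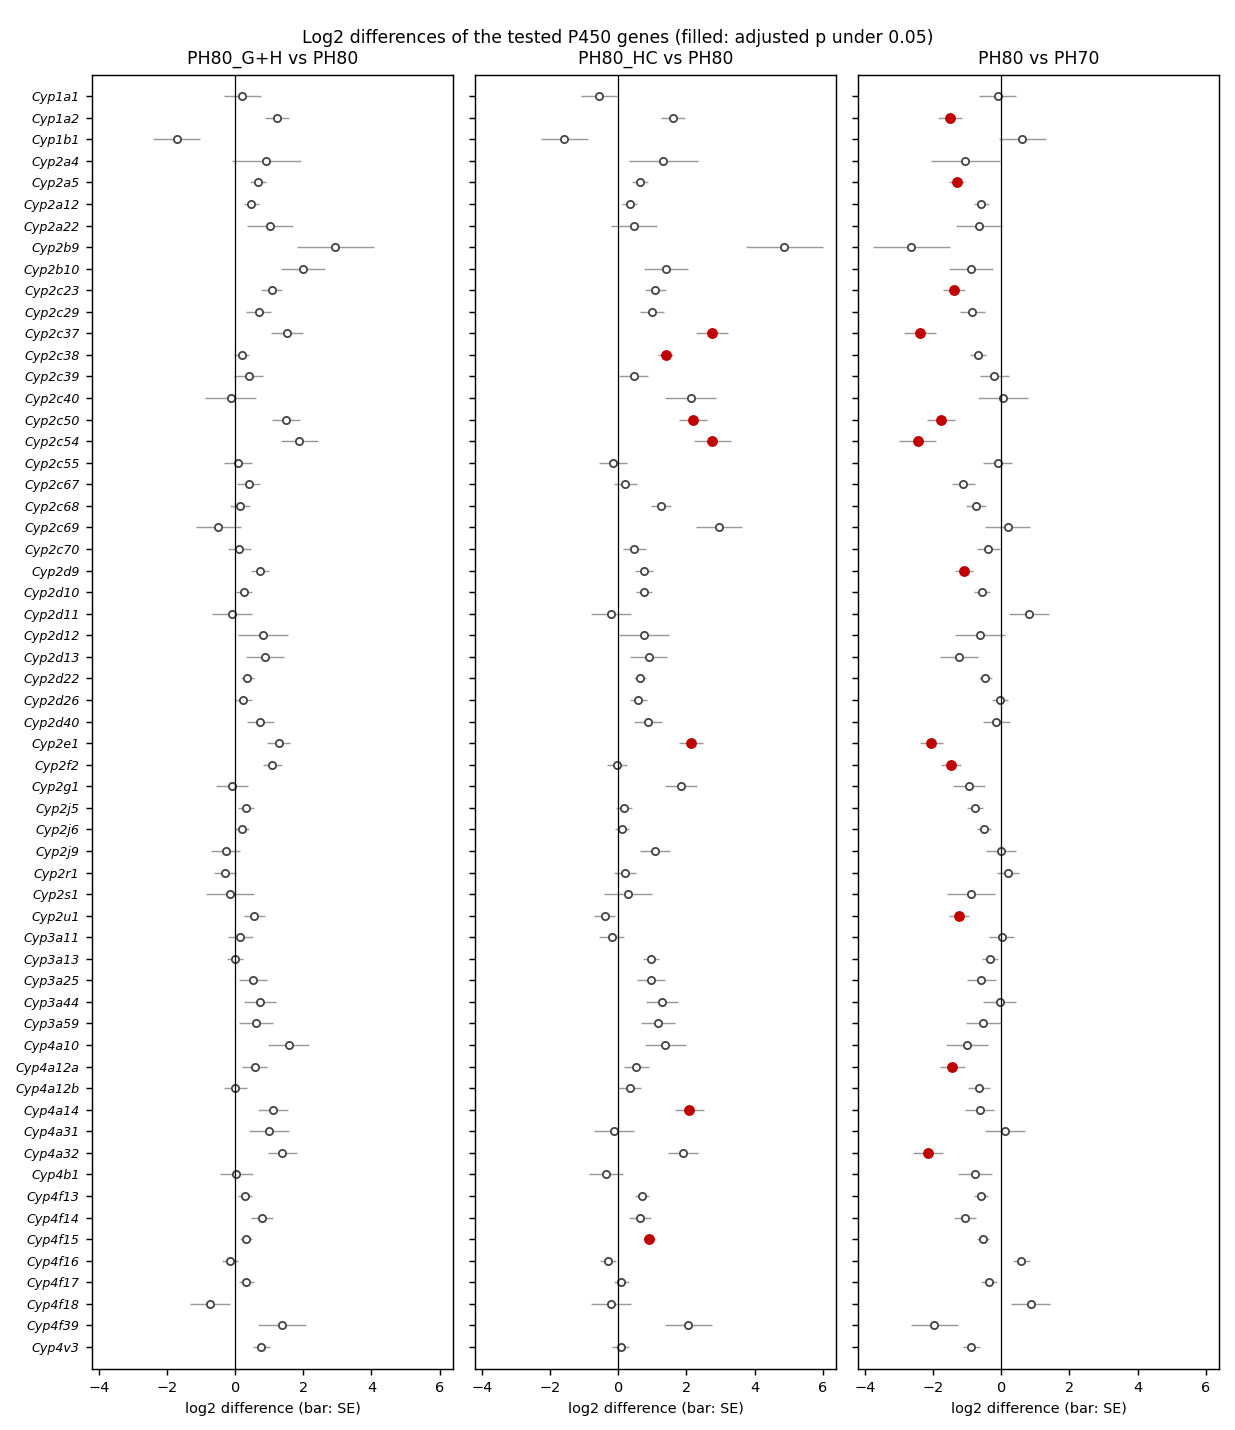
Log2 difference of each of the 59 tested P450 genes for PH80_G+H against PH80, PH80_HC against PH80 and PH80 against PH70; bars are standard errors and filled points passed an adjusted p of 0.05. No filled point stands in the PH80_G+H panel, 7 stand right of 0 in the PH80_HC panel and 12 left of 0 in the PH80 against PH70 panel.

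The HC arm was then set against PH80, both with the larger resection. This comparison shares the PH80 libraries with the one above, so a low PH80 value enters both. In PH80_HC 7 members were higher than in PH80 and 0 were lower, against 0.652% of all genes higher and 0.239% lower. The 7 were Cyp2c37, Cyp2c38, Cyp2c50, Cyp2c54, Cyp2e1, Cyp4a14 and Cyp4f15, and 32 of 59 members had an unadjusted p under 0.05 in either direction, against 14.3% of all genes. The mean was higher for 48 of 59 members (median log2 0.76, against 0.01 over all genes), and the libraries did not overlap, with PH80_HC higher, for 23 of 59, against 8.26% of all genes.

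Pericentral members again stood out, with 4 of 8 higher. Of these, the paralogs Cyp2c37, Cyp2c50 and Cyp2c54 share much sequence, as given above, and are not independent cases. Cyp2e1 had 69406, 60255 and 53074 normalised reads in PH80_HC, against 10157, 10802 and 23913 in PH80, 4.39-fold higher with no overlap (log2 2.13, SE 0.34, adjusted p = 0.0155). Cyp2c37 had 2361, 5119 and 2380 in PH80_HC and 316, 329 and 874 in PH80 (6.80-fold, log2 2.77, SE 0.47, adjusted p = 0.0210). Cyp2c54 had 2393, 4333 and 1261 in PH80_HC and 207, 273 and 748 in PH80 (6.75-fold, log2 2.75, adjusted p = 0.0344), and Cyp2c50 had 10213, 13435 and 6771 in PH80_HC and 1980, 1318 and 3793 in PH80 (4.54-fold, log2 2.18, adjusted p = 0.0279). For all 3 of these paralogs replicate 2 was the highest PH80_HC library. Cyp1a2 had nearly equal values in PH80_HC, 9195, 8839 and 8983, against 3257, 1465 and 5480 in PH80, and missed the threshold (log2 1.60, SE 0.36, adjusted p = 0.0558). Of the 8 pericentral genes without P450 function listed above, Glul and Slc1a2 were also higher in PH80_HC (log2 1.39 and 1.49, adjusted p = 0.0377 and 0.0291). Oat, Rhbg, Rgn and Gulo were higher in every PH80_HC library than in every PH80 library, but Axin2 and Lgr5 overlapped. Lgr5 had 107, 122 and 59.7 in PH80_HC and 83.0, 112 and 95.8 in PH80.

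Periportal Cyp2f2 did not share this: it had 8740, 5054 and 6759 normalised reads in PH80_HC and 8319, 4411 and 8898 in PH80 (log2 -0.04, SE 0.29, adjusted p = 0.970). The 8 periportal genes without P450s summed to 89462 to 198520 in PH80_HC and 86346 to 125510 in PH80, with overlap. The ratio of Cyp2e1 to Cyp2f2 within a library, on normalised reads, was 7.94, 11.9 and 7.85 in PH80_HC, against 1.22, 2.45 and 2.69 in PH80. Every PH80_HC library therefore lay above the PH80 range, and above the 2.28 to 3.65 of PH70 and the 2.13 to 2.39 of PH80_G+H. Set against albumin, the main secreted protein of hepatocytes, Cyp2e1 stood at 0.0217 to 0.0284 of the Alb level in PH80_HC and 0.00684 to 0.0129 in PH80. Alb itself averaged 2456800 ± 639670 in PH80_HC and 1630300 ± 199610 in PH80 (log2 0.57, SE 0.79, adjusted p = 0.819). This p-value does not show that Alb was unchanged: its lowest PH80_HC library (2056700) lay above its highest PH80 library (1857700). Alb was among 4 of 7 hepatocyte markers that did not overlap between the groups, higher in PH80_HC, against 8.26% of all genes. Macrophage markers (5 genes) summed to 7534 to 13959 in PH80_HC and 4918 to 7650 in PH80 (median log2 difference 0.63). Lymphocyte markers (6 genes) summed to 113 to 329 in PH80_HC and 51.0 to 162 in PH80 (median log2 difference 1.57), and no marker of either list passed the test. The part of these cell types in the P450 differences was not tested.

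**Figure D3:**
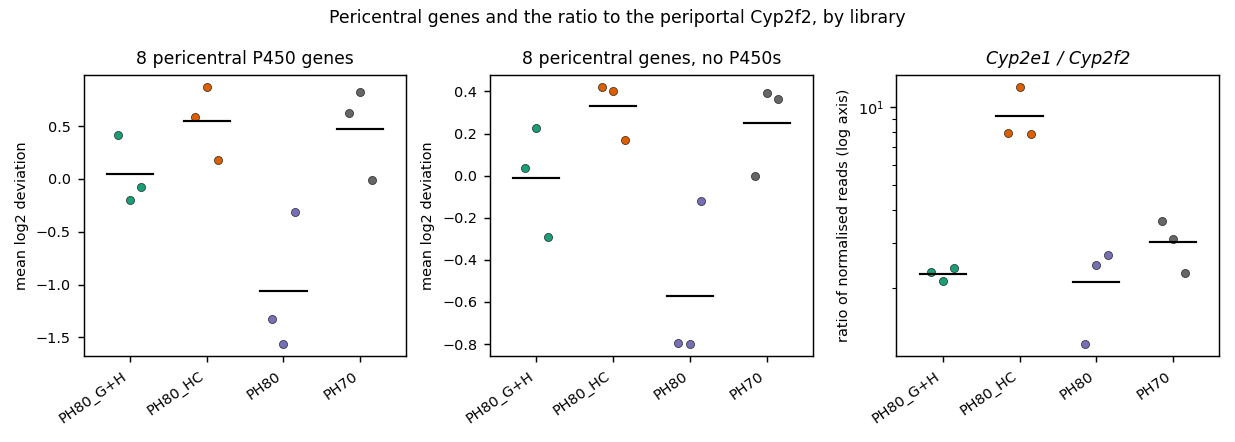
Left and middle, mean log2 deviation from the all-library mean for 8 pericentral P450 genes and for 8 pericentral genes that are not P450s; right, the Cyp2e1 to Cyp2f2 ratio of normalised reads on a log axis. Points are libraries and bars the mean of 3, for PH80_G+H, PH80_HC, PH80 and PH70 from left to right; the ratio of PH80_HC (7.85 to 11.9) lies above the other groups.

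Outside the pericentral list, Cyp2c38 (chromosome 19, 39389556 to 39463075) had 1042, 1442 and 942 normalised reads in PH80_HC, against 319, 496 and 498 in PH80 (2.62-fold higher, log2 1.39, SE 0.22, adjusted p = 0.0157). Cyp4a14 (chromosome 4, 115486200 to 115496142), a fatty acid omega-hydroxylase induced through PPAR alpha, had 4226, 8673 and 3115 in PH80_HC and 946, 899 and 1755 in PH80 (4.24-fold higher, adjusted p = 0.0389). Cyp4f15 (chromosome 17, 32685627 to 32703352), of the subfamily that hydroxylates eicosanoids, had 2765, 2778 and 2690 in PH80_HC and 1534, 1401 and 1433 in PH80 (1.89-fold higher, log2 0.91, SE 0.18, adjusted p = 0.0306). These 3 genes share 7.45%, 0.245% and 2.45% of their words with other transcripts. The other PPAR alpha targets gave log2 differences of 1.38 for Cyp4a10, 1.90 for Cyp4a32 and -0.13 for Cyp4a31, none past the test. The count of 7 was 0 without PH80 replicate 1, 3 without PH80 replicate 2, 2 without PH80_HC replicate 1, 3 without PH80_HC replicate 2, 3 without PH80_G+H replicate 3 and 11 without PH70 replicate 3, and 0 when PH80_HC and PH80 alone entered the fit. The call of Cyp2c50 ended in 9 of 25 alternatives, of Cyp2c54 in 10 and of Cyp4a14 and Cyp4f15 in 11 each. With the same total for every library, 2 members were higher and 0 lower, and the split over all genes, 82 higher and 30 lower, became 17 higher and 55 lower.

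Female-biased members had higher means in the HC arm without passing the pairwise test. Of 9 listed, 6 were in the table and 5 were tested, and 3 (Cyp2b13, Cyp3a41a and Cyp3a41b) are not analysed here. All 5 had a higher mean in PH80_HC than in PH80, 4 of them without overlap, against 8.26% of all genes, and 0 passed. Cyp2b9, counted among the 4, met the filter for testing (at least 10 in at least 3 libraries) only through PH80_HC, so its place in this count is no support. Cyp2c69 (chromosome 19, 39842814 to 39886799) had 185, 554 and 157 normalised reads in PH80_HC, against 43.6, 11.2 and 62.5 in PH80 (log2 2.96, SE 0.67, adjusted p = 0.0558), and 27.6, 14.3 and 27.2 in PH80_G+H, against the same PH80_HC values (log2 -3.46, adjusted p = 0.0520). The F test over the 4 groups, which asks for any difference among them, called it (adjusted p = 0.0369). Cyp2c40 had 203, 351 and 187 in PH80_HC and 74.5, 14.2 and 142 in PH80 (log2 2.12, adjusted p = 0.204).

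Counting is uncertain for these genes, since 54.8% of the 50-base words of Cyp2c69 and 72.1% of those of Cyp2c40 occur in other transcripts. Cyp2c69 shared 46.3% of its words with Cyp2c40, and Cyp2c40 shared 42.1% of its words with Cyp2c69. Their close paralog Cyp2c67, with the same HNF4A, C/EBP and TATA letters in the promoter shown above at other distances from the annotated start, gave 3043, 2948 and 2722 in PH80_HC, within the 1516 to 4963 of PH80. The Cyp2c69 to Cyp2c67 ratio within a library was 0.0577 to 0.188 in PH80_HC, 0.00740 to 0.0205 in PH80, 0.00285 to 0.00837 in PH70 and 0.00379 to 0.00916 in PH80_G+H, with no PH80_HC library in the range of another group. Cyp2c67 and Cyp2c68 share 52.8% and 43.3% of their words with other transcripts, most of all with Cyp2c40 (40.0% and 35.6%). Counting is therefore uncertain for them and for this ratio too. Cyp2c68 had 5045, 5880 and 5642 in PH80_HC and 2156, 1716 and 3346 in PH80 (log2 1.25, adjusted p = 0.0609). Cyp2b9 was listed at 0 in all 3 PH80 libraries, at 10.5, 66.8 and 31.1 in PH80_HC and at 50.8, 3.66 and 0 in PH70.

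Cux2, a transcription factor that in mouse liver is found mainly in females, had 154, 391 and 165 normalised reads in PH80_HC, against 7.03, 135 and 5.21 in PH80 (log2 3.51, SE 0.87, adjusted p = 0.0853). It had 5.52, 5.44 and 8.16 in PH80_G+H, lower than in PH80_HC (log2 -4.89, adjusted p = 0.0371), and 8.47, 9.14 and 4.46 in PH70, again lower than in PH80_HC (adjusted p = 0.0474). Only 4 libraries had at least 10 normalised reads of Cux2, those of PH80_HC and PH80 replicate 2. Cux2 thus entered the test through the group where it is high, and these p-values are a description only. PH80 replicate 2 thus stood apart from its group in Cux2, while its Cyp2c69 was the lowest of the group at 11.2. Of the male-biased members, Cyp2u1, at 129, 106 and 83.0 in PH80_HC, was the single member lower there than in PH70 (405, 331 and 259; 3.10-fold, adjusted p = 0.0474), against 0.119% of all genes lower and 0.111% higher in that comparison. This call ended without any 1 of the PH80_G+H, PH80_HC or PH70 libraries or without PH80 replicate 1.

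**Figure D4:**
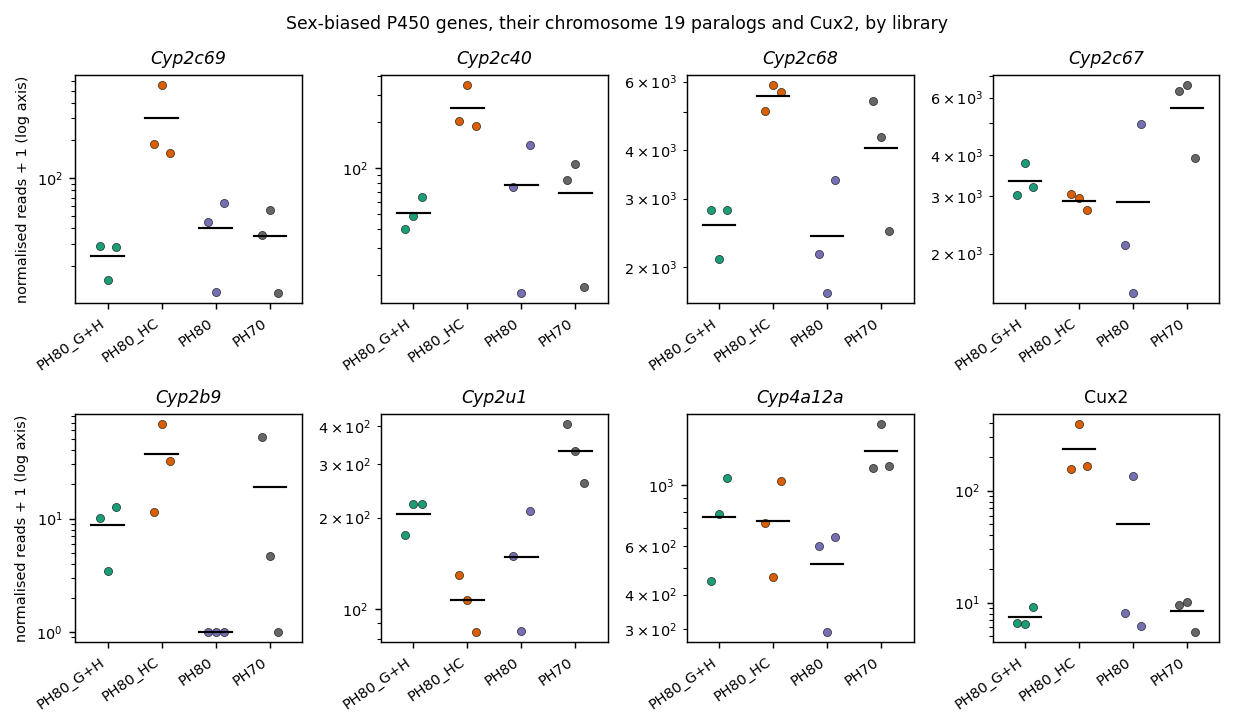
Normalised reads plus 1 (log axis) of sex-biased P450 genes, paralogs of Cyp2c69 on chromosome 19 and the factor Cux2; points are libraries, bars the mean of 3, for PH80_G+H, PH80_HC, PH80 and PH70 from left to right. In PH80_HC both Cyp2c69 (157 to 554) and Cux2 lie above all other libraries, and PH80 replicate 2, at 135, stands close below the Cux2 range of PH80_HC.

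G-CSF with HNF4a was compared with PH80 to see how P450 RNA stood in the treated arm; the PH80 libraries are again shared. In PH80_G+H no member passed limma's test in either direction, against 0.111% of all genes higher and 0.00796% lower. At an unadjusted p under 0.05 there were 17 of 59 members, against 10.5% of all genes. On recovered reads, edgeR's quasi-likelihood test called 0 members, with 11 calls over all genes. DESeq2 called 3 members higher, Cyp2e1, Cyp2c50 and Cyp2f2 (adjusted p = 0.0226, 0.0351 and 0.0275), where it called 0.788% of all genes higher, and it made 203 calls in all. The mean was higher for 48 of 59 members (median log2 0.47, against 0.00 over all genes), and 18 of 59 did not overlap, with PH80_G+H higher, against 8.82% of all genes.

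All 8 pericentral members had a higher mean in PH80_G+H, 5 of them without overlap (against 8.82% of all genes) and none past the test. Cyp2e1 had 37109, 31327 and 32133 normalised reads in PH80_G+H, against 10157, 10802 and 23913 in PH80 (log2 1.28, SE 0.34, adjusted p = 0.199). Cyp2c50 had 8628, 5042 and 5084 in PH80_G+H and 1980, 1318 and 3793 in PH80 (log2 1.49, SE 0.41, adjusted p = 0.206). Both genes lay between the PH80 and PH80_HC ranges, apart from Cyp2c50 in PH80_G+H replicate 1, which reached the PH80_HC range. Cyp2f2 had 16106, 14703 and 13433 in PH80_G+H and 8319, 4411 and 8898 in PH80 (log2 1.09, SE 0.29, adjusted p = 0.199). Its PH80_G+H values did not overlap those of PH80_HC (5054 to 8740) either, and that difference did not pass the test (log2 1.14, adjusted p = 0.148).

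Set against PH80_HC, PH80_G+H had 1 member lower, Cyp2c38 (530, 455 and 492 in PH80_G+H, against 1042, 1442 and 942 in PH80_HC; 2.28-fold, adjusted p = 0.0498), and 0 higher, where 0.0875% of all genes were lower and 0.167% higher. Over 25 alternatives its adjusted p was between 0.000189 and 0.205, and the call ended in 17 of them, including those without any 1 of the PH80_G+H or PH80_HC libraries, PH80 replicate 3, PH70 replicate 1 or PH70 replicate 2. Against PH70, PH80_G+H had 0 members past the test, with 0.00796% of all genes lower and 0.0% higher; 6 of 59 members had an unadjusted p under 0.05, against 5.97% of all genes, and edgeR and DESeq2 called 0 members, with 1 and 66 calls over all genes. The F test over the 4 groups called 9 members, Cyp2a5, Cyp2c37, Cyp2c38, Cyp2c50, Cyp2c54, Cyp2c69, Cyp2e1, Cyp2f2 and Cyp2u1, against 1.85% of all genes. That count fell to 5 without PH80_G+H replicate 1, 5 without PH80_G+H replicate 2, 1 without PH80_G+H replicate 3, 4 without PH80_HC replicate 1, 4 without PH80_HC replicate 2, 2 without PH80 replicate 1, 5 without PH80 replicate 2, 3 without PH70 replicate 1 and 0 without PH70 replicate 2.

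Genes that serve the P450s were described from lists. Of 28 regulators, 7 were lower in PH80 than in PH70 and 0 higher, against 2.73% and 1.09% of all genes. They included the circadian PAR bZIP factors Dbp (92.1 ± 39.8 in PH80 and 1375 ± 721 in PH70, log2 -3.84, adjusted p = 0.000695), Tef (506 ± 72.5 in PH80 and 1844 ± 630 in PH70, adjusted p = 0.00656) and Hlf (264 ± 36.8 in PH80 and 638 ± 113 in PH70, adjusted p = 0.00619), which act on P450 genes and on CAR. The others were Cebpa, the gene of C/EBP alpha (2748 ± 922 in PH80 and 6733 ± 91.5 in PH70, adjusted p = 0.00814), Ppara (985 ± 364 in PH80 and 3084 ± 878 in PH70, adjusted p = 0.0142), the growth hormone receptor Ghr (3179 ± 1397 in PH80 and 7509 ± 2076 in PH70, adjusted p = 0.0407) and its signal carrier Stat5b (666 ± 93.3 in PH80 and 1196 ± 123 in PH70, adjusted p = 0.0497). Dbp was higher in PH80_HC (676 ± 264, adjusted p = 0.0118) and in PH80_G+H (541 ± 68.4, adjusted p = 0.0243) than in PH80, and Tef in PH80_HC (1716 ± 640, adjusted p = 0.0213). Dbp is known to cycle over the day, and the labels do not state an hour of collection.

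Receptors of foreign compounds did not pass the test in these 3 comparisons. PXR (Nr1i2) averaged 2352 ± 398 in PH80 and 1656 ± 175 in PH70 (adjusted p = 0.276), CAR (Nr1i3) 3647 ± 831 in PH80_HC and 1782 ± 209 in PH80 (adjusted p = 0.171), and the aryl hydrocarbon receptor (Ahr) 708 ± 23.5 in PH80_G+H and 421 ± 62.5 in PH80 (adjusted p = 0.163). Hnf4a, the gene of the factor given in PH80_G+H, averaged 12248 ± 1633 in PH80_G+H and 10142 ± 2614 in PH80 (log2 0.30, adjusted p = 0.679), and 10142 ± 2614 in PH80 and 13331 ± 1938 in PH70 (log2 -0.42, adjusted p = 0.316). None of 5 redox partners was called: P450 reductase (Por) averaged 12623 ± 4010 in PH80_HC and 6231 ± 3187 in PH80 (log2 1.09, SE 0.32, adjusted p = 0.134), and its log2 difference between PH80 and PH70 was 0.11. None of 11 genes of heme synthesis and breakdown was called in these 3 comparisons either. The F test over the 4 groups called 1 of the 11, Alas1, the rate-limiting enzyme of heme synthesis (adjusted p = 0.0394). Alas1 had 5843, 9657 and 9504 normalised reads in PH80_G+H, 9553, 7385 and 10020 in PH80_HC, 4592, 4591 and 4668 in PH80 and 2046, 4870 and 3461 in PH70. Every PH80_G+H and PH80_HC library lay above every PH80 and PH70 library.

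Among 14 P450s of other families, Cyp7b1, Cyp8b1 and Cyp26b1 were lower in PH80 than in PH70, Cyp27a1, the sterol 27-hydroxylase, was higher in PH80_HC (11496 ± 2024) than in PH80 (4809 ± 809, adjusted p = 0.0306), and Cyp26b1, which clears retinoic acid, was higher in PH80_G+H (327, 351 and 122) than in PH80 (19.7, 28.4 and 47.9; log2 2.97, SE 0.44, adjusted p = 0.0243). Genes of mitosis had means in the other direction, with all 15 listed higher in PH80 than in PH70 (median log2 0.64, 1 called, Cdk1) and all 15 lower in PH80_HC and in PH80_G+H than in PH80 (medians -0.65 and -1.24, 0 called). PH80 replicate 2 stood apart: the mean log2 deviation of the mitosis list was 1.30 in it, against 0.29 and 0.41 in the other PH80 libraries, and 0.30 and 0.29 in PH80_HC replicates 2 and 3. Their part in the P450 levels was not tested.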

How the data were processed

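Liver RNA libraries (polyadenylated, stranded kit, per the labels' protocols) numbered 12, in 4 groups of 3 taken from the labels. The authors deposited a normalised signal, 1 value per gene and library; GRCm38 (mm10) and DESeq2 are named, without a role, per the submitters' processing notes. Aligner, counting tool and annotation were not given in the sources used here. In each library 100% of the values were whole multiples of 1 read within 0.01, so recovered reads give the depth (9.72 M to 44.5 M) and the precision of low genes.

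Values were tested as log2(value + 1) in 12570 genes with at least 10 in at least 3 libraries; a fold change on this scale understates that of low genes. Limma 3.58.1 (R 4.3.3, intensity trend, all 12 libraries, group only, two-sided, Benjamini-Hochberg over all genes tested, threshold 0.05) was checked on simulated data. Alternatives included edgeR 4.0.16 and DESeq2 1.42.0 on recovered reads. The smallest exact permutation p for 3 against 3 is 0.1. Replicate numbers did not pair libraries.

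Members and lists were chosen with earlier results of these data known. Named members have a mean of at least 1000, or passed PH80 against PH70, PH80_HC against PH80, PH80_G+H against PH80 or the F test; from each list of other genes up to 4 per comparison with the smallest adjusted p are named, and Por, Nr1i2, Nr1i3, Ahr, Ppara, Hnf4a, Cebpa and Alb always; others complete a list or were named after their values were seen. Coordinates are GENCODE M21 on GRCm38, in which 59 of 60 members have 1 position. Shared sequence was measured as the share of 50-base words of a transcript found in another gene's transcripts.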

Additional observations from a re-analysis of the deposited data

How the results depend on the processing

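No called member changed direction in any of 25 alternatives, whereas the counts of calls moved with them. The count of calls over all genes stands in brackets. For PH80 against PH70, with 12 (480), the count was 7 (339) without the intensity trend, 6 (237) with the same total for every library and 7 (302) without the library of steepest length slope in each group (PH80_G+H 2, PH80_HC 3, PH80 1 and PH70 3, chosen after seeing the data), and 0 to 15 (61 to 727) when a replicate was left out. For PH80_HC against PH80, with 7 (112), it was 3 (75) without the trend, 2 (72) with the same total, 19 (508) with DESeq2, 0 (2) with these groups alone, 14 (282) with length and GC trends removed, and 0 to 11 (28 to 125) without a replicate. PH80_G+H against PH80, with 0 (15), gave 3 (203) with DESeq2, 1 (24) without the steepest libraries and 0 (0 to 26) without any replicate. PH80_HC against PH70, with 1 (29), gave 0 with pseudocount 0.5 (21), with the filter at 100 (17), without the trend (8), with edgeR (15) and without the steepest libraries (20), 2 with pseudocount 10 (35), the same total (21) or TMM (29), 4 (253) with DESeq2, and 0 to 3 (1 to 54) without a replicate. PH80_G+H against PH80_HC, with 1 (32), gave 0 with pseudocount 0.5 (25), the filter at 100 (18), no trend (25), TMM (31) and without the steepest libraries (16), 2 with pseudocount 10 (37), no filter (37), edgeR (47), these groups alone (35) and length and GC trends removed (44), 7 (303) with DESeq2, and 0 to 2 (2 to 59) without a replicate. The F test, with 9 (232), called 3 (106) without the trend, 3 (139) with the same total, 25 (1226) with DESeq2, 5 (137) without the steepest libraries and 0 to 13 (27 to 281) without a replicate. PH80_G+H against PH70 stayed at 0. The cause of these moves was not tested. The same total moved the median log2 difference of all genes by 0.12 (PH80 against PH70), -0.33 (PH80_HC against PH80), -0.21 (PH80_HC against PH70) and 0.23 (PH80_G+H against PH80_HC).

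Replicate numbers were shared by the groups, but the correlation of same-numbered libraries was -0.37 to 0.37 and above 0.1 in 6 of 18 pairs, and 1 library of 12 correlated best with its own number. With the replicate number as a block, 6 members (293 genes) passed for PH80 against PH70, 3 (65) for PH80_HC against PH80, 0 (9) for PH80_G+H against PH80, 0 (10) for PH80_HC against PH70, 0 (8) for PH80_G+H against PH80_HC and 2 (107) in the F test. Cyp2e1 and Cyp2a5 lost the PH80 against PH70 call in 1 of 25 alternatives, Cyp2f2 in 2, Cyp2c37 and Cyp4a32 in 4 and Cyp2u1 in 15. For PH80_HC against PH80, Cyp2c37 and Cyp2c38 lost it in 3 and Cyp2e1 in 4. With 3 libraries a group and 9.72 M reads in the shallowest, differences in members under 100 normalised reads rest on few reads.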

Other observations

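Members at low levels spread widely between libraries. Cyp2b10, the classical CAR target, had 107, 105 and 249 normalised reads in PH80_G+H, 83.4, 49.5 and 198 in PH80_HC, 113, 24.7 and 14.6 in PH80 and 72.6, 45.7 and 82.5 in PH70, with overlap in each comparison with PH80. Cyp1b1, an aryl hydrocarbon receptor target named after its values were seen, was lower in every library of PH80_G+H (5.52, 11.4 and 6.80) and of PH80_HC (10.5, 8.42 and 6.49) than in every PH80 library (12.7, 90.5 and 16.7), and neither difference passed limma's test (adjusted p = 0.395 and 0.314). PH80 replicate 2, with the highest sums of both neutrophil and stellate cell markers, held the value of 90.5. Its stellate sum (5 genes) was 12125, against 4888 and 5062 in the other PH80 libraries. Col1a1 made up 7666 of this sum, against 1190 and 549 in PH80 replicates 1 and 3. Dcn and Des were also highest in replicate 2 among the PH80 libraries. Lrat (192, against 256 and 302) and Reln (472, against 817 and 643) were lowest there. The part of these cell types in the Cyp1b1 value was not tested. Cyp1a1, another target of that receptor, stayed between 6.49 and 31.1 in all 12 libraries.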
